A study of Mus musculus with 9 samples.

Results

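Igf1r, Grb2, Ksr1, Pik3ca, Gli3, Sufu, Galnt7, Tob2, Atg12 and Tusc2 are 10 genes that the literature names as targets of the microRNA miR-378, in growth factor signalling, hedgehog signalling, autophagy and protein glycosylation. They were taken by name from those reports, with earlier results of these data known. Of the 10, 9 had a probe set annotated to that gene alone, each had only 1 such probe set, and all 9 passed the filter on low levels, so 9 of the 12873 genes tested are members. Tusc2 was matched to no probe set and is not analysed here.

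The RNA came from NIH-3T3 cells, a mouse embryonic fibroblast line, measured on 9 Affymetrix whole-transcript arrays. The cells had received, with the lipid reagent DharmaFECT 1 and at 25 nM, a synthetic mimic of mmu-miR-378-3p, an inhibitor that blocks this microRNA, or a RISC-free siRNA as the control, and were collected after 48 hours. Each of the 3 groups had 3 arrays. All groups were transfected, and no mimic or inhibitor of an unrelated sequence was among them, so a response to the active RNAs as such cannot be told apart from one to miR-378-3p. The labels do not say whether the triplicates were separate cultures, so the p-values reflect only how far these arrays scattered, and that scatter may be technical.

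A microRNA guides an Argonaute protein to partly matching sites, mostly in the 3′ untranslated region of a transcript, and thereby lowers its stability or translation. A transcript under direct control is therefore looked for among those that fall with the mimic and rise with the inhibitor, though repression of translation alone leaves the RNA level as it is. The hairpin of miR-378 gives a 5p and a 3p strand, and the literature behind these genes concerns either of them. Igf1r is the receptor tyrosine kinase for insulin-like growth factors. Grb2, Ksr1 and Pik3ca act below such receptors, Gli3 and Sufu at the end of the hedgehog pathway, and Tob2, Galnt7 and Atg12 in mRNA decay, O-glycosylation and autophagy.

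All 8 fibroblast markers passed the level filter, with gene means from 6.94 to 11.2 on the log2 scale, and their summed level ran from 13.42 to 13.46 in the controls, 13.32 to 13.48 with the mimic and 13.36 to 13.45 with the inhibitor. Of 5 macrophage and leukocyte, 5 epithelial, 4 endothelial and 4 muscle markers, 2, 3, 1 and 1 passed the filter. The gene means of all these markers, including those that failed the filter, lay between 3.46 and 4.32. Single fibroblast markers differed between groups. Thy1 was higher with the mimic than in the controls (0.38, limma adjusted p = 0.00843) and Col3a1 lower with the inhibitor (-0.22, 0.0435). Between mimic and inhibitor Col3a1 (0.32, 0.0044) and Thy1 (0.22, 0.0235) were higher and Pdgfrb lower (-0.27, 0.0364) with the mimic, and their part in the members' values was not tested. A pair of arrays stood apart from the others. Mimic 3 held the lowest value of the 9 arrays in 34.0% of the genes tested, and the highest in 16.05%. Inhibitor 1 held the highest in 28.6% and the lowest in 21.3%. The 75th percentile of all probe sets ran from 5.55 on mimic 3 to 5.76 on inhibitor 1, and from 5.63 to 5.69 on the other arrays.

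Among the 9 members, Galnt7 rose with the inhibitor, and Igf1r, Gli3 and Galnt7 were lower with the mimic than with the inhibitor. No member passed the threshold between the mimic and the control. The plot of the values by array shows this as inhibitor arrays that lie above both other groups in the panels of Igf1r, Gli3 and Galnt7. A member is called here when its adjusted p in limma, over all genes tested, is under 0.05. Differences are given on the log2 scale, where 1 is a doubling.

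**Figure D1:**
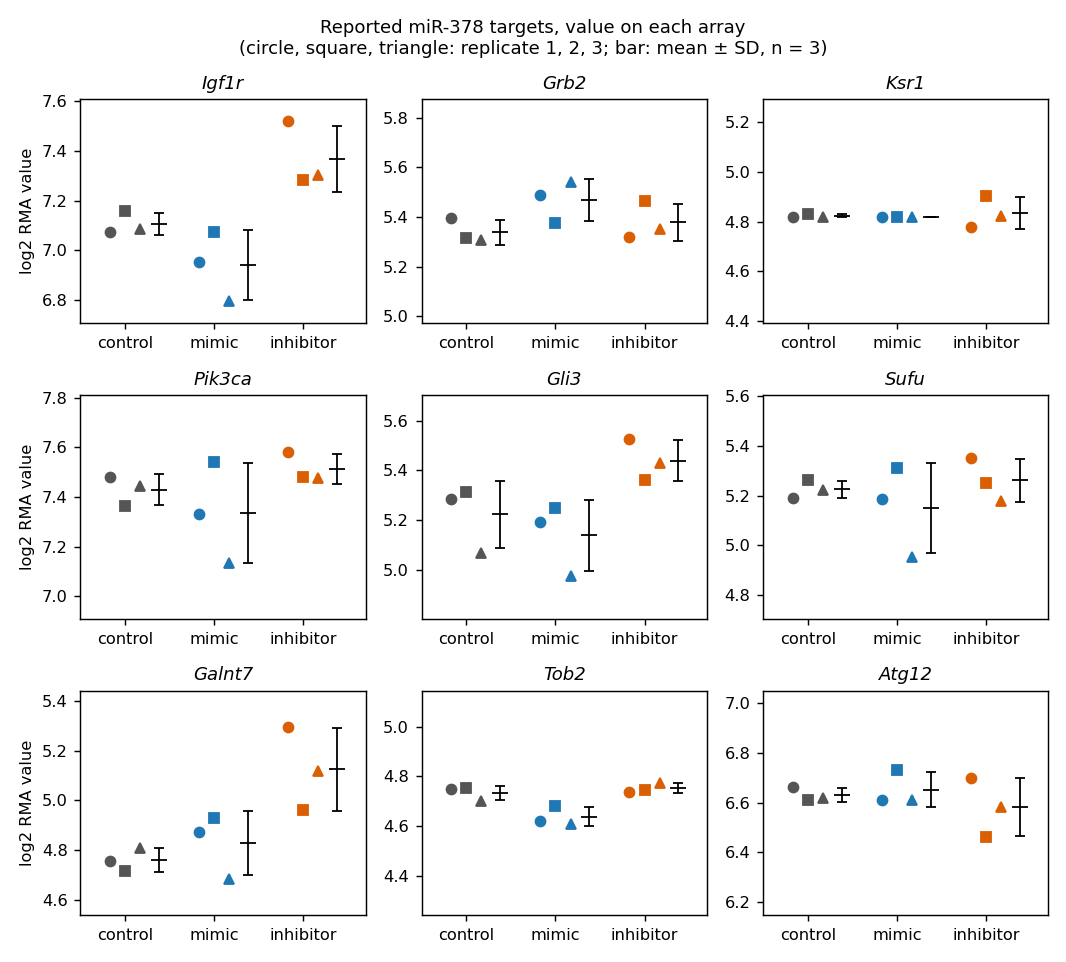
Log2 RMA value (vertical axis, the same span in each panel) of the 9 members on the control, mimic and inhibitor arrays. Circles, squares and triangles are replicates 1, 2 and 3, and the bar beside each group is its mean with the SD (n = 3). For Igf1r, Gli3 and Galnt7 the inhibitor arrays lie above all control and mimic arrays, and mimic 3 is the lowest of the 9 arrays.

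With the mimic, 0 of 9 members were called (limma), where 3.15% of all genes were (405 of 12873). Of all genes 1.01% rose and 2.14% fell. At an unadjusted p under 0.05 the count was 1 member (Tob2), against 15.4% of all genes. The log2 fold change was below 0 in 6 members, where 51.8% of all genes were below 0. Of the 6, Ksr1 crossed 0 after quantile normalization and Pik3ca and Sufu without mimic 3. The other 3 members were above 0, of which Atg12 crossed it without mimic 2. The median over the members was -0.08 against -0.0042 over all genes. In 2 members, Igf1r and Tob2, every mimic array lay below every control array. Over all genes, 20.5% kept mimic and control arrays apart in this way, in either direction.

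With the inhibitor, 1 of 9 members was called, Galnt7, where 13.7% of all genes were (1765 of 12873), 10.2% as higher and 3.49% as lower. A share of 1 in 9 is close to that background. The median log2 fold change was 0.04 against 0.0073 over all genes. It was above 0 in 8 members, where 52.5% of all genes were above 0. Of the 8, Grb2, Ksr1, Pik3ca and Sufu crossed 0 after quantile normalization. Grb2 and Ksr1 also crossed it without inhibitor 2, and Sufu without inhibitor 1. Inhibitor and control arrays did not overlap in 3 members, all higher with the inhibitor (Igf1r, Gli3 and Galnt7), against 36% of all genes in either direction.

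Between mimic and inhibitor, 3 of 9 members were called, all lower with the mimic. The background was 24.7% of all genes (3176 of 12873), 18.3% lower and 6.36% higher with the mimic. Every mimic array lay below every inhibitor array in 4 members (Igf1r, Gli3, Galnt7 and Tob2), and 36.9% of all genes kept the groups apart in either direction. This comparison is also the test of whether the response to the mimic differs from that to the inhibitor, since both share the control arrays. The median over the members was -0.11, and -0.0053 over all genes.

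The counts over all genes depend on which arrays enter. Leaving out control 1, 2 or 3 gave 129, 165 or 143 calls for the mimic, and leaving out mimic 1 or inhibitor 3 gave 180 or 266, against 405 with all arrays. For the inhibitor the same steps gave 945, 1033 or 980 calls, with 1086 without inhibitor 1, 1015 without inhibitor 3 and 2763 without mimic 3, against 1765. Quantile normalization of the deposited values gave 334 rises and 438 falls with the mimic, beside 130 and 275 as deposited. For the inhibitor it gave 1271 rises and 1010 falls, beside 1316 and 449. In the direct comparison 1657 genes were then higher and 2014 lower with the mimic, beside 819 and 2357.

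**Figure D2:**
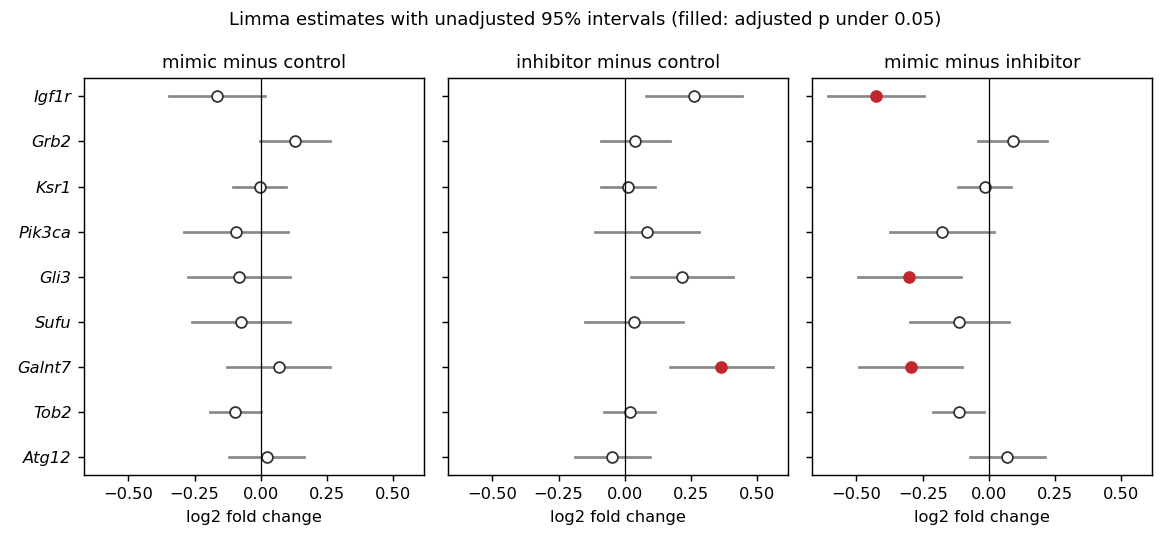
Log2 fold change (horizontal axis) of the 9 members in the 3 comparisons, with the unadjusted 95% interval from limma as a line. Filled points passed an adjusted p of 0.05, which holds for Galnt7 with the inhibitor and for Igf1r, Gli3 and Galnt7 between mimic and inhibitor.

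Igf1r (gene ID 16001) binds IGF1 and IGF2 and starts both the Ras and the PI3K branch of growth signalling. Its log2 value was 7.07, 7.16 and 7.08 on the control arrays, 6.95, 7.07 and 6.79 on the mimic arrays and 7.52, 7.28 and 7.30 on the inhibitor arrays. The inhibitor arrays were highest and the mimic arrays lowest, and no group overlapped another, although mimic 2 fell only just below control 1. The group means were 7.11 ± 0.04, 6.94 ± 0.14 and 7.37 ± 0.13 (SD, n = 3). Mimic and inhibitor thus differed by -0.43 ± 0.08 (SE; limma, adjusted p = 0.00409), or -25.6% in level with the mimic. In bulk RNA, a change in fewer cells and a smaller change per cell cannot be told apart.

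Neither comparison of Igf1r with the control passed the threshold. The log2 fold change was -0.17 with the mimic (95% interval -0.35 to 0.02; limma, adjusted p = 0.376) and 0.26 with the inhibitor (0.08 to 0.44; adjusted p = 0.0603). The inhibitor value was past the threshold when mimic 2 or mimic 3 was left out (adjusted p = 0.0372 and 0.0189), arrays that enter this comparison only through the shared estimate of spread. It was also past it after quantile normalization (0.17, adjusted p = 0.0455), with the level filter at the 60th percentile (adjusted p = 0.0471), in a fit of the 6 arrays alone (adjusted p = 0.0246) and without mimic 3 and inhibitor 1 together (0.19, adjusted p = 0.0327). The difference between mimic and inhibitor was called in 9 of 9 fits with a single array left out, from -0.49 to -0.35. Without mimic 3 and inhibitor 1 together it was -0.28 (adjusted p = 0.00692).

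Grb2 (gene ID 14784) is the adaptor that brings the exchange factor Sos to activated receptors. Its control arrays read 5.40, 5.31 and 5.31, its mimic arrays 5.49, 5.38 and 5.54 and its inhibitor arrays 5.32, 5.46 and 5.35. The groups overlapped in each comparison, and mimic 3 held the highest value, unlike most other members. The mimic value stood 0.13 above the control (95% interval -0.0018 to 0.26; limma, adjusted p = 0.334), the opposite side of 0 from a fall. With the inhibitor the difference was 0.04 (-0.09 to 0.17; adjusted p = 0.737).

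Ksr1 (gene ID 16706) is the scaffold that holds Raf, MEK and ERK together. Its value was 4.82 on controls 1 and 3 and on all 3 mimic arrays, identical to the last digit deposited, and 4.83 on control 2. The inhibitor arrays read 4.78, 4.90 and 4.82, so both the lowest and the highest of the 9 values lay in that group. Of the genes tested, 27.7% had the same value on at least 2 arrays and 0.645% on at least 5, as Ksr1 did, so its SD of 0.007 in the controls understates the error. The log2 fold change was -0.0041 with the mimic (95% interval -0.10 to 0.10; limma, adjusted p = 0.978) and 0.01 with the inhibitor (-0.09 to 0.11; adjusted p = 0.91).

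Pik3ca (gene ID 18706) encodes the p110 alpha catalytic subunit of PI3K. It read 7.48, 7.36 and 7.45 in the controls, 7.33, 7.54 and 7.14 with the mimic and 7.58, 7.48 and 7.48 with the inhibitor. The mimic arrays spread from the lowest value to above every control, with an SD of 0.20 against 0.06 in each of the other groups. The difference was -0.09 with the mimic (95% interval -0.29 to 0.10; limma, adjusted p = 0.704), which became 0.0059 without mimic 3, and 0.08 with the inhibitor (-0.11 to 0.28; adjusted p = 0.616). Mimic against inhibitor gave -0.18 (-0.37 to 0.02; adjusted p = 0.178), and passed the threshold only when mimic 2 was left out, at -0.28 (adjusted p = 0.0164).

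Gli3 (gene ID 14634) is the transcription factor that, in its processed form, represses hedgehog target genes, and Sufu (gene ID 24069) is the inhibitor that holds Gli factors back. Gli3 read 5.29, 5.31 and 5.07 in the controls, 5.19, 5.25 and 4.98 with the mimic and 5.53, 5.36 and 5.43 with the inhibitor. All 3 inhibitor arrays lay above all other arrays, while control and mimic arrays overlapped.

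Gli3 means were 5.22 ± 0.13, 5.14 ± 0.14 and 5.44 ± 0.08 (control, mimic and inhibitor; SD, n = 3). Mimic and inhibitor differed by -0.30 ± 0.09 (SE; limma, adjusted p = 0.0294). That call ended without mimic 1 (-0.33, adjusted p = 0.0525), mimic 3 (-0.22, 0.0694), inhibitor 1 (-0.26, 0.107) or inhibitor 3 (-0.30, 0.0746), without a level filter, and without mimic 3 and inhibitor 1 together, where it was -0.17 (adjusted p = 0.157). Gli3 stood 0.22 above the control with the inhibitor (95% interval 0.02 to 0.41; adjusted p = 0.135), a value that passed only without mimic 3 (adjusted p = 0.0496), and -0.08 with the mimic (-0.28 to 0.11; adjusted p = 0.733).

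Sufu read 5.19, 5.26 and 5.22 in the controls, 5.18, 5.31 and 4.96 with the mimic and 5.35, 5.25 and 5.18 with the inhibitor. All groups overlapped, and the low mean of the mimic group rests on mimic 3. Its difference from the control was -0.08 with the mimic (95% interval -0.26 to 0.11; limma, adjusted p = 0.751) and 0.02 without mimic 3. With the inhibitor it was 0.04 (-0.15 to 0.22; adjusted p = 0.839), and between mimic and inhibitor -0.11 (-0.30 to 0.07; adjusted p = 0.366).

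Galnt7 (gene ID 108150) encodes an N-acetylgalactosaminyltransferase that adds further sugars to peptides that already carry O-linked N-acetylgalactosamine. Its value was 4.76, 4.72 and 4.81 in the controls, 4.87, 4.93 and 4.68 with the mimic and 5.29, 4.96 and 5.12 with the inhibitor. Every inhibitor array lay above every control and mimic array, and a pair of mimic arrays lay above the controls as well. With the inhibitor Galnt7 rose from 4.76 ± 0.05 to 5.13 ± 0.17 (SD, n = 3), by 0.36 ± 0.09 (SE; limma, adjusted p = 0.0217). This is 1.29-fold, with a 95% interval from 1.12 to 1.47. Galnt7, like Ksr1 and Tob2, read low, where markers of other cell types had gene means up to 4.32.

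The rise of Galnt7 was called in 4 of the 9 fits that left out an array. It ended without control 1 (0.36, limma adjusted p = 0.0729), control 2 (0.34, 0.0818), control 3 (0.39, 0.0552), inhibitor 1 (0.28, 0.0697) or inhibitor 3 (0.37, 0.0677). Without mimic 3 and inhibitor 1 together it was 0.28 (adjusted p = 0.00935), and after quantile normalization 0.33 (adjusted p = 0.0128). With the mimic the difference was 0.07 (95% interval -0.13 to 0.26; adjusted p = 0.794). The mimic arrays stood 0.30 ± 0.09 (SE) below the inhibitor arrays (adjusted p = 0.0325). That second call ended without control 1 (adjusted p = 0.0527), mimic 1 (0.0627), mimic 3 (0.0808), inhibitor 1 (0.111) or inhibitor 3 (0.082), in a fit of the 6 arrays alone and without a level filter. Without mimic 3 and inhibitor 1 together it was -0.14 (adjusted p = 0.156).

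Tob2 (gene ID 57259), an antiproliferative protein that recruits the CCR4-NOT deadenylase to transcripts, had narrow groups. It read 4.75, 4.75 and 4.70 in the controls, 4.62, 4.68 and 4.61 with the mimic and 4.74, 4.75 and 4.78 with the inhibitor. The mimic arrays lay below all 6 others, with mimic 2 only just below control 3. The difference was -0.10 ± 0.04 with the mimic (SE; unadjusted p = 0.0498, limma adjusted p = 0.325), or -6.43% in level. Mimic against inhibitor gave -0.11 (95% interval -0.21 to -0.02; adjusted p = 0.0798), which passed after median centring (-0.14, adjusted p = 0.0499) and without a level filter (adjusted p = 0.0418). With the inhibitor Tob2 stood 0.02 above the control (-0.08 to 0.11; adjusted p = 0.838).

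Atg12 (gene ID 67526) is the ubiquitin-like protein that is joined to Atg5 when the autophagosome forms. It read 6.66, 6.61 and 6.62 in the controls, 6.61, 6.73 and 6.61 with the mimic and 6.70, 6.46 and 6.58 with the inhibitor. All groups overlapped, and the identical value 6.61 appeared on control 2, mimic 1 and mimic 3. The difference was 0.02 with the mimic (95% interval -0.12 to 0.16; limma, adjusted p = 0.921) and -0.05 with the inhibitor (-0.19 to 0.09; adjusted p = 0.701). Mimic against inhibitor gave 0.07 (adjusted p = 0.465), and 0.20 after quantile normalization (adjusted p = 0.00895), so the call of Atg12 depends on how the arrays are scaled.

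Several members had their extremes on the same arrays. Igf1r, Pik3ca, Gli3, Sufu and Galnt7 had their lowest value on mimic 3 and their highest on inhibitor 1, and Tob2 also had its lowest on mimic 3. Over all 36 pairs of the 9 members, 21 had a Pearson correlation above 0 over the 9 arrays, which share their scaling. Grb2, with its highest value on mimic 3, correlated below 0 with each member other than Ksr1 (-0.70 to -0.35). Ksr1 ran against Atg12 (-0.84). Mimic 3 and inhibitor 1 also lay at the ends of the 75th percentile of all probe sets, and the part of that shift in the members' values was not tested beyond the fits without both arrays and after quantile normalization.

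**Figure D3:**
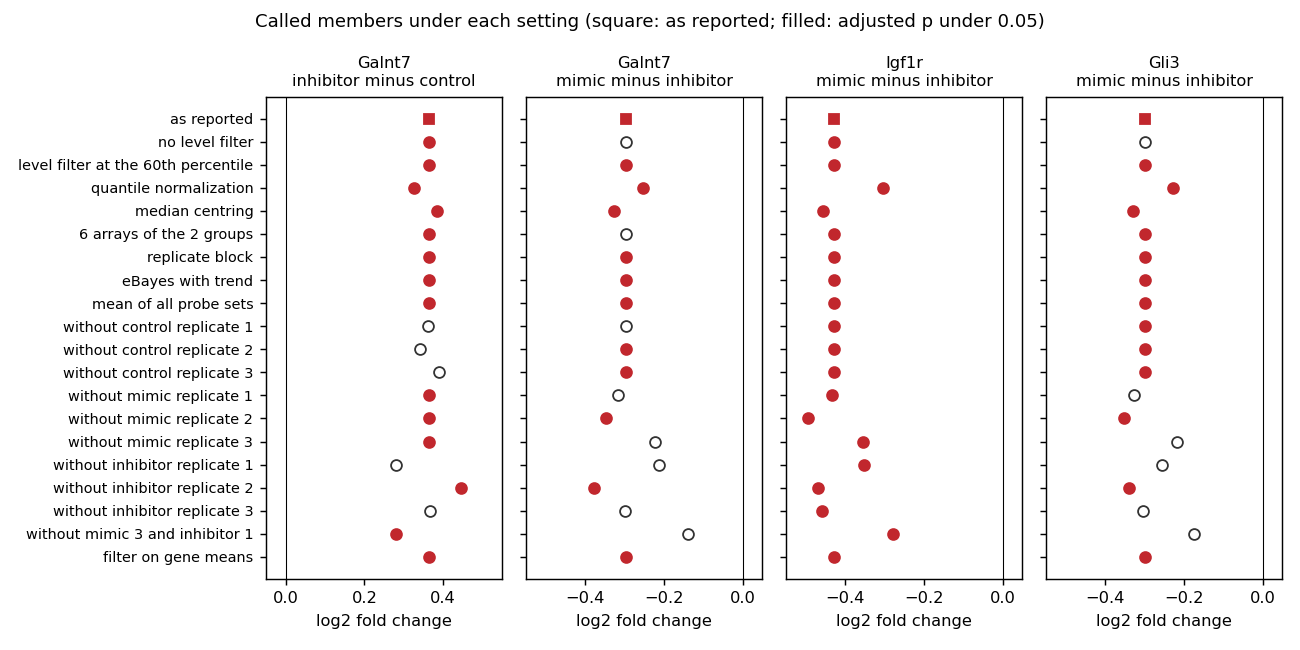
Log2 fold change (horizontal axis) of the called members under the reported fit (square) and the alternatives (circles, 1 row each). The 1.5-fold minimum, under which 0 members were called, is not drawn. Filled symbols passed an adjusted p of 0.05. Igf1r between mimic and inhibitor is filled in each row, while Galnt7 and Gli3 are open in several rows, among them those without mimic 3 or inhibitor 1 for the difference between mimic and inhibitor.

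The genes whose values followed a called member most closely over the 9 arrays were taken as a description. For Galnt7 these were Xpo6 (Pearson r = 0.989), Uba6 (0.988) and Exoc5 (0.985). For Igf1r they were Notch2 (0.994), Fam120a (0.992) and Axl (0.99), a receptor tyrosine kinase. For Gli3 they were Zfp777 (0.988), Rnf26 (0.986) and Got2 (0.977). The arrays share their scaling, and mimic 3 and inhibitor 1 weigh in each of these correlations.

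The promoters of the 3 members that were called lower with the mimic than with the inhibitor are shown. Each window runs from 250 bases before to 50 after the start of the gene in RefSeq (GRCm38.p6), 5′ to 3′ on the gene's strand. Igf1r lies at chr7:67952007-67952306 on the plus strand, Gli3 at chr13:15463473-15463772 on the plus strand and Galnt7 at chr8:57653006-57653305 on the minus strand. Capitals mark the GC box GGGCGG, searched on both strands.
Igf1r: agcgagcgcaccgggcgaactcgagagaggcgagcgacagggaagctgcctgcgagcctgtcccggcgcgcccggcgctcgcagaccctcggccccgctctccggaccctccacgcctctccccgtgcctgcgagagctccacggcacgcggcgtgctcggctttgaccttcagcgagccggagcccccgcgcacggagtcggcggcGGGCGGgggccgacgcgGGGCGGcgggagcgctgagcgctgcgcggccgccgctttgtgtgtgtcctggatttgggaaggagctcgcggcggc
Gli3: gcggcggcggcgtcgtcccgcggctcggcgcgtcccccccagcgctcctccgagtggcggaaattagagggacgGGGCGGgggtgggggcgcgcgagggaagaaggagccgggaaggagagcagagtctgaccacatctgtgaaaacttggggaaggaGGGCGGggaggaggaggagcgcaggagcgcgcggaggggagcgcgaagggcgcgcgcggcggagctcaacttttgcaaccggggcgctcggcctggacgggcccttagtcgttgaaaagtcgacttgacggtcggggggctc
Galnt7: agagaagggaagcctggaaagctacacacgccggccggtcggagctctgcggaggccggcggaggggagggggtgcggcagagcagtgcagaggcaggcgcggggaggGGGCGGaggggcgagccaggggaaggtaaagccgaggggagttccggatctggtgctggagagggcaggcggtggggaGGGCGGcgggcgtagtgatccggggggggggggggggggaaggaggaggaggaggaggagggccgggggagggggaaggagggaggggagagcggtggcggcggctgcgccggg

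All 3 windows are rich in G and C, at 76%, 71% and 75%, where the median of 32851 RefSeq promoter windows was 52.7%. Each held 2 GC boxes, and 35.7% of all windows held at least 1. Tob2 and 1 window of Ksr1 held 2 as well. Pik3ca, Sufu and the other window of Ksr1 held 1, and those of Grb2 held 0. None of these genes was called. The E box CACGTG (7.15% of all windows), the AP-1 site TGACTCA (5.2%) and the TATA box TATAAA (13.6%) were in none of the windows of Igf1r, Gli3 and Galnt7. These matches describe letters and not binding. Windows were matched for 8 of the 9 members tested.

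The other genes of the pathways give the members' setting. Of 32 tested genes of the IGF receptor, Ras and PI3K list, 4 rose with the inhibitor and 0 fell, a count near the 10.2% and 3.49% of all genes. At an unadjusted p under 0.05 in limma the count was 9 of 32, against 27.5% of all genes. The median was 0.09 against 0.0073 over all genes. The 4 that rose were Pik3cb, the p110 beta subunit of PI3K (0.77, limma adjusted p = 0.000353), the insulin receptor substrate Irs2 (0.23, 0.0224), the exchange factor Sos1 (0.36, 0.038) and the kinase Mtor (0.23, 0.0457). After quantile normalization 3 rose and 1 fell, where 1271 of all genes rose and 1010 fell. Of the 9 fits without 1 array, Pik3cb was called in 9, Irs2 in 5, Sos1 in 3 and Mtor in 2. The list count was 1 without control 1, control 3, inhibitor 1 or inhibitor 3, and 2 without mimic 1.

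With the mimic, Akt1, the kinase activated by PI3K products, was the single call among the 32, where 3.15% of all genes were called. It fell by 0.52 ± 0.06 (SE; limma, adjusted p = 0.0022), and was called in 9 of 9 fits without 1 array. The list count was 2 without mimic 3. Against the inhibitor, 8 of the 32 were lower and 1 higher with the mimic, where 18.3% and 6.36% of all genes were, with a median of -0.09 against -0.0053. Pik3cb was lower (-0.90), as were Akt1 (-0.61) and the forkhead factor Foxo3 (-0.29), and Igfbp4, which binds and restrains insulin-like growth factors, was higher by 0.34 (adjusted p of at most 0.0112). Insr, the receptor most like Igf1r, was lower (-0.40, adjusted p = 0.0348), as was Sos1, the partner of Grb2 (-0.36, 0.0236). Both calls ended without mimic 1, mimic 3, inhibitor 1 or inhibitor 3, and that of Insr also without control 1. The list count of 9 became 5 without mimic 1, mimic 3 or inhibitor 1, and 4 without inhibitor 3.

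Of 17 tested hedgehog genes, 0 were called with the mimic, where 3.15% of all genes were. At an unadjusted p under 0.05 (limma) the mimic count was 2, against 15.4% of all genes. With the inhibitor 3 were called, where 13.7% of all genes were. With the inhibitor Smo, the membrane protein that starts the signal, rose by 0.23 (limma, adjusted p = 0.0466), while Boc, a co-receptor for hedgehog ligands, fell by 0.60 (0.00307) and Ift88, a transport protein of the primary cilium, fell by 0.20 (0.0232). Of the fits without 1 array, 9 called Boc, 6 called Ift88 and 2 called Smo. The list count was 1 without control 1, control 3 or inhibitor 1, and 5 without mimic 3. Between mimic and inhibitor, 2 of the 17 were called, where 6.36% of all genes were higher and 18.3% lower with the mimic. Boc (0.54, limma adjusted p = 0.00268) and Ift88 (0.16, 0.0394) were higher with the mimic, in 9 and 1 of the fits without 1 array. Ptch1, Gli1 and Gli2, the receptor and the other Gli factors, were not called in any of the 3 comparisons. Gli1 (group means 3.86 to 3.89) and Ptch1 (4.01 to 4.14) read low, where markers of other cell types had gene means up to 4.32. Gli2 read 4.53 to 4.54.

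Of 29 autophagy genes, 2 rose and 1 fell with the mimic, and 1 rose and 2 fell with the inhibitor, where 3.15% and 13.7% of all genes were called. With the mimic Map1lc3a, a membrane-bound mark of autophagosomes, rose by 0.29 (limma, adjusted p = 0.0216) and Wipi1 by 0.34 (0.048), and the cargo receptor Sqstm1 fell by 0.30 (0.00917). Those calls held in 5, 1 and 8 of the 9 fits without 1 array. None of the 3 did without control 1, and 1 did without control 2 or control 3. With the inhibitor Gabarap, a relative of Map1lc3a, fell by 0.39 (0.000771) in 9 of 9 fits, Map1lc3a fell by 0.23 (0.0237) in 5, and Atg2b rose by 0.32 (0.0471) in 2. The list count with the inhibitor was 1 without control 1, control 3 or inhibitor 3, and 7 after quantile normalization (2 higher and 5 lower). Over all genes that setting gave 1271 rises and 1010 falls with the inhibitor, beside 1316 and 449 as deposited.

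In the direct comparison 5 autophagy genes were higher and 2 lower with the mimic, where 6.36% and 18.3% of all genes were. Map1lc3a (0.52), Gabarap (0.47), Sqstm1 (-0.41) and Atg2b (-0.59) had adjusted p of at most 0.00144 in limma and held in 9 of 9 fits. Atg10, which loads Atg12 onto Atg5, was higher by 0.21 (adjusted p = 0.0445) in 1 of 9 fits. Atg5, Atg7 and Atg16l1, the other partners of Atg12, were not called in any comparison. After quantile normalization, which also moved Atg12 past the threshold, 13 of the 29 were called, 11 higher and 2 lower with the mimic. Over all genes that setting gave 1657 higher and 2014 lower with the mimic, beside 819 and 2357 as deposited.

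**Figure D4:**
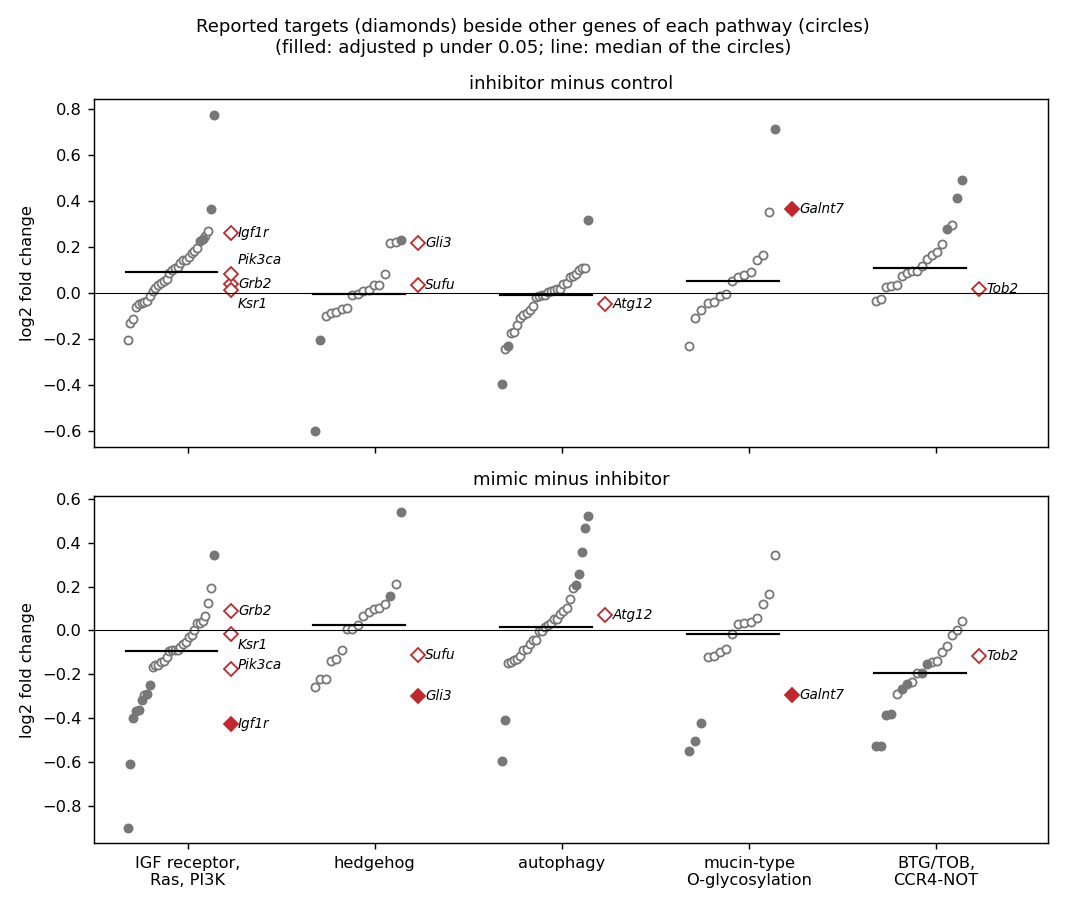
Log2 fold change (vertical axis) of the members (diamonds) beside the other tested genes of 5 pathway lists (circles, sorted), for the inhibitor against the control and for the mimic against the inhibitor. Filled symbols passed an adjusted p of 0.05, and the line is the median of the circles. Pik3cb, at 0.77 and -0.90, lies farther from 0 than Igf1r in both panels, and C1galt1, at 0.71 and -0.55, than Galnt7.

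Of 15 tested genes of mucin-type O-glycosylation, 1 was called in each comparison with the control, where 3.15% (mimic) and 13.7% (inhibitor) of all genes were. With the inhibitor C1galt1, which extends the first sugar to the core 1 structure, rose by 0.71 ± 0.10 (SE; limma, adjusted p = 0.00151), and with the mimic Galnt4, which like Galnt7 prefers peptides that already carry sugar, fell by 0.45 ± 0.06 (0.00404). Both held in each of the 9 fits without 1 array. Against the inhibitor, C1galt1 (-0.55), Galnt4 (-0.50) and Galnt2 (-0.42), which starts the sugar chain, were lower with the mimic (adjusted p of at most 0.0185), 3 of 15 where 18.3% of all genes were lower, and the call of Galnt2 ended without inhibitor 1 (-0.28, adjusted p = 0.0765). The count with the inhibitor was 3 without mimic 3 and after quantile normalization, which gave 6 between mimic and inhibitor, 3 in each direction. Over all genes quantile normalization gave 1271 rises and 1010 falls with the inhibitor. Between mimic and inhibitor it gave 1657 genes higher and 2014 lower with the mimic. Galnt1 was not called in any comparison.

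Of 18 tested genes of the BTG and TOB family and the CCR4-NOT deadenylase, 3 rose with the inhibitor, where 10.2% of all genes did. They were Btg2, an antiproliferative p53 target (0.49, limma adjusted p = 0.012), the deadenylase Cnot6l (0.41, 0.017) and the subunit Cnot11 (0.28, 0.0407), which held in 8, 5 and 2 of the 9 fits without 1 array. None of the 3 was called without control 1, and 1 was without control 3, inhibitor 1 or inhibitor 3. With the mimic Tob1, the closest relative of Tob2, fell by 0.29 ± 0.05 (SE; 0.0132), and this call ended without control 1, control 3 or mimic 1. Against the inhibitor, 8 of 18 were lower with the mimic and 0 higher, where 18.3% and 6.36% of all genes were, with a median of -0.19 against -0.0053 over all genes. Cnot9 (-0.53), Btg2 (-0.53) and Tob1 (-0.27) were called in 9 of 9 such fits and Cnot6l (-0.39) in 8, all but inhibitor 1. The list count was 3 without inhibitor 1 and 5 without mimic 1, mimic 3 or inhibitor 3. After quantile normalization it was 5 (4 lower and 1 higher), where Tob1 was not called (-0.13, limma adjusted p = 0.0619). Over all genes that setting gave 2014 lower and 1657 higher with the mimic.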

How the data were processed

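Values are on the log2 scale, as the authors deposited them, with 1 per array for each of 28853 probe sets (2.64 to 12.5). Partek 6.5 and RMA stand in the submitters' processing notes. RMA corrects background, equalises probe distributions and sums probes by median polish. The genome build is not given in the sources used. Of all probe sets, 21789 are annotated to 1 gene and gave names. Where a gene had several, that with the highest mean was taken. Genes whose mean lay under the 40th percentile of probe sets (3.77) were dropped, and 12873 were tested.

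All 9 arrays entered 1 limma fit (version 3.58.1, R 4.3.3), with group means as coefficients, 6 residual degrees of freedom, 4.09 prior ones and moderated variances. Benjamini-Hochberg adjustment ran over the genes tested. Precision is limited by 3 arrays per group. The median residual SD was 0.08. Simulated data with known changes served to test the script.

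The members and the gene lists were chosen with earlier results of these data known. Every member is named, as are up to 4 called genes per list and comparison (by smallest adjusted p), partners of members, and for each called member its 3 best correlated genes. Other settings tried were the level filter, scaling by quantiles or medians, separate fits of 6 arrays, a block for replicate number, a variance trend, averaged probe sets, a 1.5-fold minimum, and fits lacking 1 array or both mimic 3 and inhibitor 1. Those for the lists, and a filter on gene means, were added after seeing the data. The sequence of miR-378-3p was not used here, and target sites were not searched.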

Additional observations from a re-analysis of the deposited data

How the results depend on the processing

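Counts over all genes and members moved as follows. With the mimic, 772 genes were called after quantile normalization, 223 after median centring, 243 in fits of 6 arrays, 897 without mimic 3 and inhibitor 1, and 129 to 568 with an array left out. With the inhibitor the range with an array left out was 945 to 2763. A fold of at least 1.5 left 36, 191 and 410 genes (mimic, inhibitor, and mimic against inhibitor) and 0 members in each comparison. Members called with the inhibitor were 2, Galnt7 and Igf1r, with a filter at the 60th percentile, after quantile normalization, in fits of 6 arrays and without mimic 3 and inhibitor 1, and 0 to 3 with an array left out. Between mimic and inhibitor they were 1 (Igf1r) without mimic 3 and inhibitor 1, and 1 to 4 with an array left out.

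Members that changed sign were not called on either side of 0, and the cause was not tested. After quantile normalization Ksr1 stood at 0.0027 with the mimic, and at 0.0064 between mimic and inhibitor. With the inhibitor it gave Grb2 -0.0179, Ksr1 -0.0038, Pik3ca -0.0034 and Sufu -0.014. Without mimic 3 and inhibitor 1, Pik3ca (0.0059) and Sufu (0.0222) turned with the mimic, and Sufu with the inhibitor (-0.0093) and between both (0.0315). With an array left out, mimic values ran from -0.0185 to 0.0422 for Atg12, -0.1963 to 0.0059 for Pik3ca and -0.1552 to 0.0222 for Sufu. Inhibitor values ran from -0.0024 to 0.0689 for Grb2, -0.0234 to 0.0396 for Ksr1, -0.0093 to 0.0765 for Sufu and -0.1063 to 0.0114 for Atg12, and Ksr1 ran from -0.0437 to 0.0193 between mimic and inhibitor.

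The labels do not say whether arrays of the same replicate number belong together, and correlations over 3 arrays per group cannot decide it. Deviations from group means of same-numbered arrays correlated between -0.59 and 0.22, above 0.1 in 5 of 9 pairs, and 2 of 9 arrays correlated best with their own number. With the replicate number as a block 280, 1565 and 2991 genes and 0, 1 and 3 members were called.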

Other observations

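The chromosomal segment that holds Tusc2, a conserved tumour suppressor region, is represented by other genes. Of 9 tested there, 0 were called with the mimic and 2 with the inhibitor, where 3.15% and 13.7% of all genes were. At an unadjusted p under 0.05 (limma) the mimic count was 2, against 15.4% of all genes. With the inhibitor Ifrd2, a ribosome-binding relative of interferon-related developmental regulators, rose by 0.67 ± 0.08 (SE; limma, adjusted p = 0.000942), and Nprl2, a subunit of the complex that restrains mTORC1, fell by 0.24 (0.0448). Ifrd2 was lower with the mimic than with the inhibitor (-0.81, adjusted p = 0.000172). The list count was 2 without mimic 3. Both calls of Ifrd2 held in each of the 9 fits without 1 array, and that of Nprl2 in 3, ending without each control and each inhibitor array. These genes say nothing of the level of Tusc2 itself.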
